A study of Trichoderma reesei with 24 samples.

Results

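The sorbicillinoid biosynthetic gene cluster of the filamentous fungus *Trichoderma reesei* was followed through 7 genes of the 8755 in the deposited expression table. They are the polyketide synthase genes TRIREDRAFT_73618 and TRIREDRAFT_73621, the monooxygenase genes TRIREDRAFT_73623 and TRIREDRAFT_73631, the transporter gene TRIREDRAFT_43701, and the regulator genes *ypr1* (TRIREDRAFT_102499) and *ypr2* (TRIREDRAFT_102497). The genes were chosen by name as members of the cluster, with earlier results of the comparison between strains already known. Values of that comparison are therefore given for the 7 genes as a description, without p-values. Where members past the call thresholds are counted in it, the share of all genes stands beside the count and nothing is read from it. The comparisons of carbon sources and times within a strain were not the basis of the choice, and they were tested. They share libraries with the comparison between strains, among them the WT libraries at 48 h. They are therefore not separate evidence on the members, and their p-values are not free of the choice.

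RNA was taken from mycelia of the Δ*nsd3* strain and of the WT strain TU6 in 4 conditions, with 3 libraries in each of the 8 groups. The Δ*nsd3* strain has *nsd3* (TRIREDRAFT_75672), the gene of a transcription factor, replaced with the selection marker *pyr4* (genotype nsd3::pyr4). It is 1 transformant made in TU6 by CRISPR-Cas9. TU6, which descends from QM9414, cannot grow without a supply of uridine, and cultures received it where they required it. Loss of *nsd3* and gain of *pyr4* cannot be told apart in these libraries. Both strains were grown in Mandels-Andreotti medium for 24 h on glucose, for 24 h on glycerol, or for 8 h or 48 h on cellulose after pregrowth for 24 h on glycerol. The sources do not say whether the triplicates were separate cultures, so p-values measure the spread between these libraries, which may be technical. No marker list of mycelia was tested.

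Sorbicillinoids are yellow polyketide pigments. Polyketide synthases are large multidomain enzymes that build a carbon chain from small acyl units, and further enzymes of a cluster, such as monooxygenases, modify the chain. Transporter genes often lie in such clusters, next to genes of transcription factors that control the cluster itself. In filamentous fungi the genes of 1 pathway commonly lie side by side and are often expressed together, and *T. reesei* is best known for the cellulases that it secretes on cellulose.

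In the gene order of the RefSeq table, the 7 genes stood next to each other with 0 other genes between them. The order was TRIREDRAFT_73618, TRIREDRAFT_73621, TRIREDRAFT_73623, the transporter gene, *ypr2*, TRIREDRAFT_73631, and *ypr1*. The polyketide synthase genes spanned 8117 and 8083 bp in that table, and the other members between 1539 and 2416 bp.

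Levels are given in TPM, a unit of transcript abundance scaled by gene length and library total, so that levels of different genes can be compared. The table holds no read counts, so the depth behind a value is unknown, and a value of 0 is described only as listed at 0. In bulk RNA, a smaller share of expressing cells and less transcript per cell cannot be told apart. Fold changes and their SE come from a limma model on log2(TPM + 1), which understates the changes of genes with low TPM, and each gene has 1 variance shared by all 24 libraries. The SE of a gene is thus the same in every condition, and neither it nor the p-value measures only the spread of the 2 groups compared. A gene was called a DEG where its adjusted p-value was under 0.05 and its log2 fold change was 1 or more in either direction. Of the 8755 genes, 7933 passed a filter of at least 1 TPM in at least 3 libraries. All 7 members passed it, but TRIREDRAFT_73621 and TRIREDRAFT_73623 did so only through the WT libraries at 48 h. The median of all genes lay between -0.18 and 0.49 on the log2 scale in the 10 comparisons, with the highest for 8 h on cellulose against glycerol in WT. As a check of the strain, *nsd3* ranged from 0 to 2.42 TPM in the Δ*nsd3* libraries and from 32.2 to 278 TPM in the WT libraries. At 48 h, 2 libraries stood apart, in different ways. Replicate 2 of Δ*nsd3* was the library in which *nsd3* reached 2.42 TPM. Over all genes it did not stand apart, as it correlated with the other Δ*nsd3* libraries of that time at 0.989 and 0.991. Replicate 2 of WT correlated with the other WT libraries of that time at 0.948 and 0.942 over all genes. The lowest correlation of any other pair of replicates was 0.984.

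At 48 h on cellulose, all 7 genes were lower in the Δ*nsd3* strain than in WT, and no library of one strain overlapped with the other for any of them. Of all genes tested, 4.16% were called lower in that comparison and 18.4% were lower without overlap. TRIREDRAFT_73621 and TRIREDRAFT_73623 passed the filter only through the WT libraries at 48 h, so their changes over time are given without a test. In the Δ*nsd3* strain, none of the other 5 members was called in either direction between 8 h and 48 h. Of all genes there, 4.6% were called higher and 4.26% lower. By overlap, 3 members (TRIREDRAFT_73621, TRIREDRAFT_73631, and *ypr1*) were higher there at 48 h in every library, as were 17.6% of all genes. The lack of calls depends on the scale, since some members were called higher with a pseudocount of 0.1 TPM. In WT, the 5 members that passed the filter without help of the libraries at 48 h all rose between these times, where 6.42% of all genes were called higher. TRIREDRAFT_73621 and TRIREDRAFT_73623 had their highest levels in WT at 48 h, and since they entered the fit through these libraries, their change in WT is given without a test. On glucose, on glycerol, and at 8 h, 6, 4, and 2 members were lower without overlap, as were 40.3%, 10.6%, and 33.9% of all genes in that order. The transporter gene and *ypr2* were the members lower without overlap in every condition. The share of all genes that were so in every condition was not computed, and nothing is read from these counts.

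**Figure D1:**
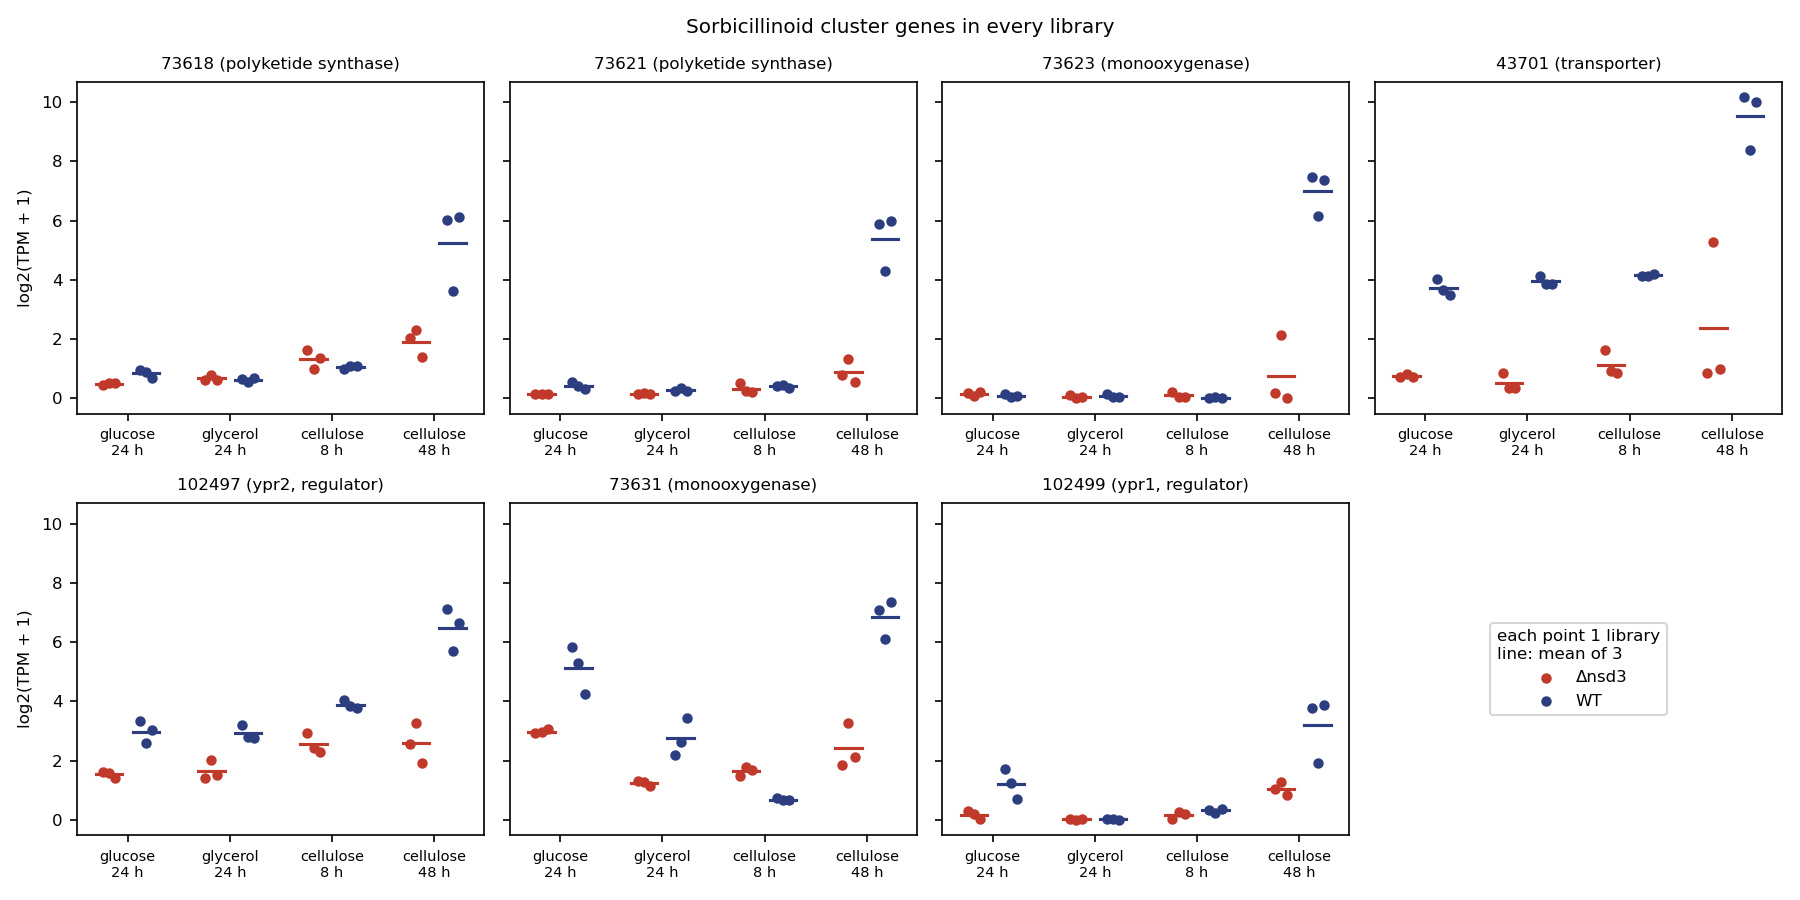
Level of each member, in log2(TPM + 1), in every library of the Δ*nsd3* strain (red, left) and of WT (blue, right) in the 4 conditions; points are libraries and lines are means of 3. For all 7 genes the WT libraries at 48 h on cellulose lie above every Δ*nsd3* library of that time, and the transporter gene and *ypr2* are apart in all 4 conditions.

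The polyketide synthase gene TRIREDRAFT_73618 was low in both strains until 48 h. On glucose it had 0.363, 0.445, and 0.418 TPM in the Δ*nsd3* strain, against 0.945, 0.835, and 0.627 TPM in WT. On glycerol it had 0.552, 0.711, and 0.546 TPM in the Δ*nsd3* strain, against 0.581, 0.485, and 0.60 TPM in WT. After 8 h on cellulose it had 2.08, 0.993, and 1.59 TPM in the Δ*nsd3* strain, against 0.995, 1.16, and 1.13 TPM in WT. The strains overlapped on glycerol and at 8 h, and on glucose the Δ*nsd3* libraries were the lower ones. At 48 h it had 3.07, 3.94, and 1.63 TPM in the Δ*nsd3* strain, against 64.5, 11.4, and 68.7 TPM in WT. Replicate 2 was the lowest of the WT libraries at that time, and it was still above all 3 Δ*nsd3* libraries. The Δ*nsd3* mean at 48 h was 5.97% of that of WT, and the log2 fold change was -3.35 (SE 0.39). Without replicate 2 of WT it was -4.17.

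TRIREDRAFT_73621, the other polyketide synthase gene, stayed under 0.5 TPM in both strains on glucose, on glycerol, and at 8 h. It had 0.106, 0.110, and 0.121 TPM on glucose in the Δ*nsd3* strain, against 0.472, 0.326, and 0.236 TPM in WT. On glycerol it ranged from 0.109 to 0.128 TPM in the Δ*nsd3* strain and from 0.182 to 0.287 TPM in WT, and at 8 h from 0.166 to 0.444 TPM in the Δ*nsd3* strain and from 0.279 to 0.362 TPM in WT. The Δ*nsd3* libraries were lower without overlap on glucose and on glycerol, at levels where the log2 fold changes were only -0.27 and -0.13 (SE 0.28 each). At 48 h it had 0.725, 1.54, and 0.478 TPM in the Δ*nsd3* strain, against 58.5, 18.5, and 62.5 TPM in WT. The Δ*nsd3* mean was 1.97% of that of WT, with a log2 fold change of -4.49 (SE 0.28).

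Between 8 h and 48 h, TRIREDRAFT_73618 was not called in the Δ*nsd3* strain and rose in WT. Its log2 fold change in the Δ*nsd3* strain was 0.58 (95% confidence interval from -0.19 to 1.34, limma, adjusted p = 0.34). For TRIREDRAFT_73621 the value in that strain was 0.57 (0.02 to 1.11), given as a description. These intervals are normal approximations and somewhat narrow, so the lower end of 0.02 is not read as excluding no change. All 3 Δ*nsd3* libraries of TRIREDRAFT_73621 at 48 h were above those at 8 h, which was the case for 17.6% of all genes. Its mean at 48 h was 3.44 times that at 8 h in this strain. The log2 fold change depends on the scale and reached 1.41 under the alternatives in processing. In WT, TRIREDRAFT_73618 averaged 48.2 ± 32.0 TPM at 48 h and 1.09 ± 0.085 TPM at 8 h (SD, n = 3 each), a log2 fold change of 4.20 (SE 0.39, limma, adjusted p = 1.4e-08). TRIREDRAFT_73621 averaged in WT 46.5 ± 24.3 TPM at 48 h and 0.323 ± 0.042 TPM at 8 h, a log2 fold change of 4.99, given as a description. TRIREDRAFT_73618 was not called between glycerol and glucose or between 8 h and glycerol in either strain.

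The 2 monooxygenase genes had different patterns before 48 h. TRIREDRAFT_73623 was at or near 0 in both strains on every substrate but cellulose at 48 h. Its highest value outside that time was 0.163 TPM in the Δ*nsd3* strain and 0.113 TPM in WT, and it was listed at 0 in replicate 2 of Δ*nsd3* on glycerol and in replicates 1 and 3 of WT at 8 h. At 48 h it had 0.135, 3.40, and 0 TPM in the Δ*nsd3* strain, against 177, 70.8, and 164 TPM in WT. The value of 3.40 TPM belongs to replicate 2 of Δ*nsd3*, and the WT libraries were all above 70 TPM. The log2 fold change was -6.23 (SE 0.36), and it was -6.91 without replicate 2 of Δ*nsd3*. As a description, the log2 fold change between 8 h and 48 h was 0.67 in the Δ*nsd3* strain (95% confidence interval from -0.04 to 1.37). It was -0.015 without replicate 2 at 48 h. In WT its mean was 138 ± 58.1 TPM at 48 h, and the log2 fold change between these times was 6.98, the largest of the 7 on the log2(TPM + 1) scale. It is likewise a description, as the gene entered the fit through the WT libraries at 48 h.

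TRIREDRAFT_73631 was the member with the most varied profile. On glucose it had 6.62, 6.74, and 7.34 TPM in the Δ*nsd3* strain, against 55.9, 38.7, and 18.3 TPM in WT. On glycerol it had 1.48, 1.42, and 1.22 TPM in the Δ*nsd3* strain, against 3.61, 5.22, and 9.77 TPM in WT. The Δ*nsd3* libraries were the lower ones on both substrates, with log2 fold changes of -2.16 and -1.51 (SE 0.37 each). After 8 h on cellulose the order of the strains was the opposite. It had 1.77, 2.43, and 2.21 TPM in the Δ*nsd3* strain, against 0.657, 0.584, and 0.585 TPM in WT, and it was the only member higher in the Δ*nsd3* strain without overlap, as were 23.3% of all genes. The log2 fold change there was 0.96, under the fold threshold of 1. That value depends on the scale, as the Δ*nsd3* mean was 351% of that of WT. Under the alternatives in processing it ran from 0.35 to 1.65. At 48 h it had 2.59, 8.68, and 3.38 TPM in the Δ*nsd3* strain, against 135, 67.3, and 161 TPM in WT, a log2 fold change of -4.42. The Δ*nsd3* strain was thus lower in 3 conditions and higher at 8 h.

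TRIREDRAFT_73631 was also the only member that was called lower in both strains on glycerol against glucose. It fell with a log2 fold change of -1.73 in the Δ*nsd3* strain (SE 0.37, adjusted p = 0.0004) and of -2.38 in WT (adjusted p = 1.1e-05), where 7.19% of all genes in the Δ*nsd3* strain and 13.4% in WT were called lower. For 8 h on cellulose against glycerol, the log2 fold change was 0.40 in the Δ*nsd3* strain (95% confidence interval from -0.32 to 1.12, adjusted p = 0.46). In WT it fell further (-2.07, adjusted p = 5.9e-05), where 5.03% of all genes were called lower. These comparisons share the glycerol libraries of their strain. With a pseudocount of 5 TPM, the call on glycerol in the Δ*nsd3* strain (-0.90) and the call at 8 h in WT (-0.96) were lost. The mean at 48 h, 4.88 ± 3.31 TPM, was below that on glucose, 6.90 ± 0.386 TPM, in the Δ*nsd3* strain. The change of the gene between 8 h and 48 h was 0.77 in that strain (adjusted p = 0.15), with every library at 48 h above those at 8 h. In WT the gene rose between these times by 6.15 (adjusted p = 6.9e-12), with 121 ± 48.4 TPM at 48 h and, as the lowest of its 4 WT means, 0.609 ± 0.042 TPM at 8 h.

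The transporter gene (TRIREDRAFT_43701) had the highest level of the 7 genes in WT at 48 h. On glucose it had 0.646, 0.790, and 0.662 TPM in the Δ*nsd3* strain, against 15.2, 11.6, and 10.3 TPM in WT. On glycerol it had 0.826, 0.289, and 0.287 TPM in the Δ*nsd3* strain, against 16.4, 13.5, and 13.7 TPM in WT. After 8 h on cellulose it had 2.11, 0.912, and 0.809 TPM in the Δ*nsd3* strain, against 16.7, 16.5, and 17.3 TPM in WT. The Δ*nsd3* means in these 3 conditions were 5.65%, 3.22%, and 7.57% of the WT means, with log2 fold changes of -2.96, -3.42, and -3.02 (SE 0.69 each). At 48 h the gene had 0.793, 38.1, and 1.001 TPM in the Δ*nsd3* strain, against 1166, 333, and 1037 TPM in WT. Replicate 2 was the highest Δ*nsd3* library and the lowest WT library, and the strains were still apart. The log2 fold change was -7.15, and -8.61 without replicate 2 of Δ*nsd3*. It ranked 2 from the lowest of the 7933 genes tested in that comparison and was the lowest of the members on the log2(TPM + 1) scale. That order depends on the scale. With a pseudocount of 0.1 TPM the log2 fold change was -7.79 for the transporter gene and -8.20 for TRIREDRAFT_73623, and the Δ*nsd3* means were 1.57% and 0.86% of those of WT for these genes in that order.

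The change of the transporter gene between 8 h and 48 h was 1.24 in the Δ*nsd3* strain (95% confidence interval from -0.11 to 2.59, adjusted p = 0.23). This value rests on 1 library, and without replicate 2 of Δ*nsd3* at 48 h it was -0.22. In WT the gene rose between these times by 5.37 on the log2 scale (SE 0.69, adjusted p = 1.9e-06), with means of 845 ± 449 TPM at 48 h and 16.8 ± 0.379 TPM at 8 h. On glucose, on glycerol, and at 8 h it lay between 10.3 and 17.3 TPM in WT, where TRIREDRAFT_73618, TRIREDRAFT_73621, and TRIREDRAFT_73623 stayed under 1.2 TPM. The 3 WT libraries at 8 h were also above those on glycerol, as were 59.5% of all genes, but the log2 fold change was only 0.21 (adjusted p = 0.81) with the median of all genes at 0.49, and it was -0.30 after rescaling by the median of ratios.

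The regulator genes were lower in level than the transporter gene in WT at 48 h. *ypr2* was expressed above 1 TPM in all 24 libraries. On glucose it had 2.08, 1.97, and 1.69 TPM in the Δ*nsd3* strain, against 9.08, 5.04, and 7.11 TPM in WT, and on glycerol 1.70, 3.07, and 1.86 TPM in the Δ*nsd3* strain, against 8.13, 5.95, and 5.82 TPM in WT. After 8 h on cellulose it had 6.71, 4.44, and 3.92 TPM in the Δ*nsd3* strain, against 15.7, 13.4, and 12.7 TPM in WT. The strains did not overlap in these 3 conditions, and the Δ*nsd3* means were 27.0%, 33.3%, and 36.1% of those of WT, with log2 fold changes of -1.44, -1.26, and -1.33 (SE 0.31 each). At 48 h it had 4.88, 8.76, and 2.76 TPM in the Δ*nsd3* strain, against 138, 51.6, and 98.8 TPM in WT. The Δ*nsd3* mean was then 5.69% of that of WT, with a log2 fold change of -3.91.

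The Δ*nsd3* levels of *ypr2* at 48 h lay on both sides of those at 8 h, with a change of 0.02 (95% confidence interval from -0.59 to 0.64, adjusted p = 0.98). In WT it rose between these times by 2.60 on the log2 scale (SE 0.31, adjusted p = 8.1e-07), the smallest of the 7 changes. At 8 h, every library was above those on glycerol in each strain, as were 27.9% of all genes in the Δ*nsd3* strain and 59.5% in WT. The change was 0.91 in the Δ*nsd3* strain (adjusted p = 0.031) and 0.98 in WT (adjusted p = 0.0099), both under the fold threshold of 1, and the medians of all genes were 0.03 in the Δ*nsd3* strain and 0.49 in WT. With a pseudocount of 0.1 TPM both values passed the threshold (1.16 in the Δ*nsd3* strain and 1.07 in WT).

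*ypr1* was the lowest of the 7 genes in every WT library at 48 h. On glucose it had 0.222, 0.158, and 0.017 TPM in the Δ*nsd3* strain, against 2.30, 1.36, and 0.627 TPM in WT, a log2 fold change of -1.05 (SE 0.32). This value was under the fold threshold without replicate 3 of Δ*nsd3* (-0.97), without replicate 1 of WT (-0.80), and with a pseudocount of 5 TPM (-0.32). On glycerol both strains were at or under 0.032 TPM, and at 8 h it ranged from 0.024 to 0.191 TPM in the Δ*nsd3* strain and from 0.18 to 0.304 TPM in WT. The strains therefore overlapped on glycerol and at 8 h and were apart on glucose. At 48 h it had 1.08, 1.44, and 0.785 TPM in the Δ*nsd3* strain, against 12.8, 2.77, and 13.6 TPM in WT, a log2 fold change of -2.13 (SE 0.32) and of -2.77 without replicate 2 of WT. Its Δ*nsd3* mean at 48 h was 11.3% of that of WT, the highest such share among the members.

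For *ypr1*, all 3 Δ*nsd3* libraries at 48 h were above those at 8 h, with a change of 0.89 (95% confidence interval from 0.26 to 1.53, adjusted p = 0.048), under the fold threshold. Its means in that strain were 1.10 ± 0.329 TPM at 48 h and 0.125 ± 0.089 TPM at 8 h, and with a pseudocount of 0.1 TPM the change was 2.47 and passed the threshold. In WT it rose between these times by 2.87 (adjusted p = 2.9e-07). On glycerol against glucose it fell in WT with a log2 fold change of -1.19 (SE 0.32, adjusted p = 0.0037), a call lost without replicate 1 of WT on glucose (-0.94) and with a pseudocount of 5 TPM (-0.35).

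**Figure D2:**
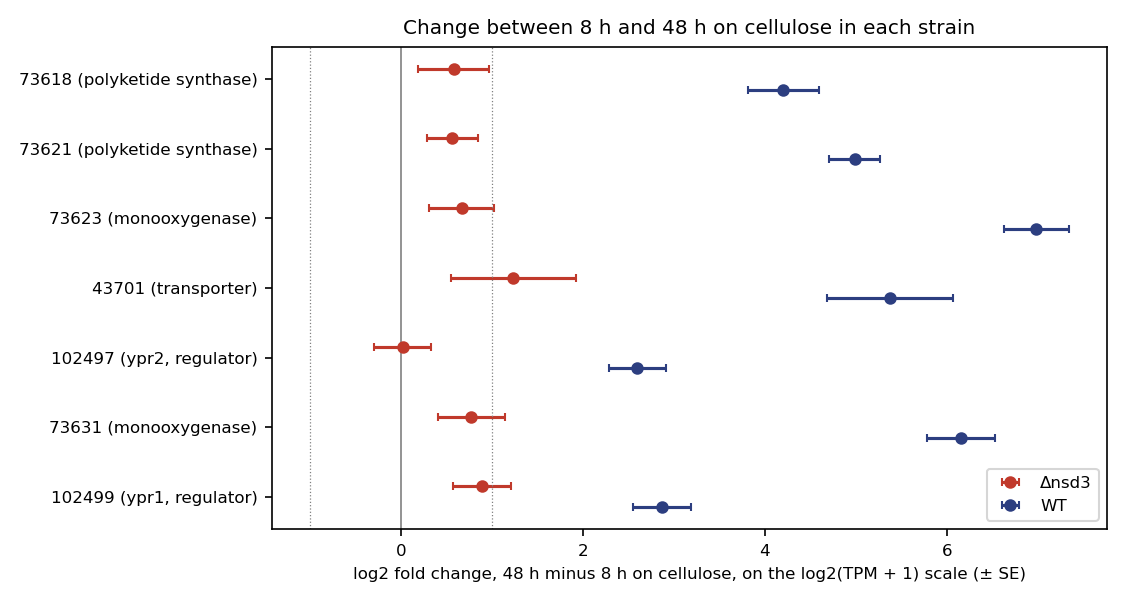
Log2 fold change between 8 h and 48 h on cellulose for each member in the Δ*nsd3* strain (red, above) and in WT (blue, below), on the log2(TPM + 1) scale with SE bars; dotted lines mark the fold threshold of 1 in either direction. The changes run from 0.02 to 1.24 in the Δ*nsd3* strain and from 2.60 to 6.98 in WT.

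Over the 4 conditions, the Δ*nsd3* strain was called lower for 4 members on glucose, 3 on glycerol, 2 at 8 h, and 7 at 48 h, and higher for 0 in each. Called higher were 3.14%, 7.39%, 9.13%, and 9.29% of all genes tested in these conditions. Of the same genes, 6.45% were called lower on glucose, 3.1% on glycerol, and 8.11% at 8 h, beside the 4.16% at 48 h. The members called lower on glucose were the transporter gene, TRIREDRAFT_73631, *ypr2*, and *ypr1*, those on glycerol were the same without *ypr1*, and those at 8 h were the transporter gene and *ypr2*. Counted by overlap, 6, 4, 2, and 7 members were lower in the Δ*nsd3* strain in the order of conditions, against 40.3%, 10.6%, 33.9%, and 18.4% of all genes. The median log2 fold change of the members was -1.05 on glucose, -0.13 on glycerol, -0.07 at 8 h, and -4.42 at 48 h, against -0.16, 0.29, -0.15, and 0.03 over all genes. The 7 at 48 h include TRIREDRAFT_73621 and TRIREDRAFT_73623, which entered the fit only through the WT libraries of that time. Since these contrasts bear on the choice of the genes, nothing is read from the counts. Between 8 h and 48 h, the median over members was 0.67 within the Δ*nsd3* strain and 4.99 within WT. Both medians include the 2 members that were not tested. The medians over all genes were 0.0049 within the Δ*nsd3* strain and -0.18 within WT. The strain comparison at 48 h and the comparison of times share libraries in each strain, so that they are not separate evidence on the members.

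The order of the members at 48 h in WT was the same at both ends in all 3 libraries, with the transporter gene first, TRIREDRAFT_73623 second, and *ypr1* last. TRIREDRAFT_73631 and *ypr2* exchanged places 3 and 4 between libraries, and the polyketide synthase genes exchanged places 5 and 6, so that these neighbors did not differ beyond their spread. In the Δ*nsd3* strain only TRIREDRAFT_73621, at place 6, kept its place in all 3 libraries.

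The 2 libraries that stood apart at 48 h did so for the members as well. Replicate 2 of Δ*nsd3* had the highest level of all 7 members among the 3 Δ*nsd3* libraries of that time. Expressed per WT mean, it held 4.5% for the transporter gene, against 0.106% in the mean of replicates 1 and 3, and 2.47% for TRIREDRAFT_73623, against 0.0491%. For *nsd3* itself, which the strain lacks, the same library held 3.32% of the WT mean, against 0.0804% in the others. Of all other genes, 2 had at most 1 TPM in replicates 1 and 3 of Δ*nsd3* and a WT mean of at least 50 TPM at that time, limits set after values had been seen, and replicate 2 held 0.392% and 0.937% of their WT means. In replicate 2 of WT, the 7 genes were at 17.1% to 45.5% of the mean of replicates 1 and 3, and *nsd3* was at 34.6%. The lowest share was that of TRIREDRAFT_73618 and the highest that of TRIREDRAFT_73631. The part of these libraries in the results was not tested. With replicate 2 of WT left out, the 5 members tested between 8 h and 48 h in WT were still called higher at 48 h.

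The members varied together over the libraries to an extent that depended on WT at 48 h. Over all 24 libraries, which share 8 group means, Pearson's correlation of log2(TPM + 1) in the 21 pairs of members ranged from 0.63 to 0.99 with a median of 0.86. Without the 3 WT libraries at 48 h it ranged from -0.13 to 0.87 with a median of 0.36. Once group means had been subtracted, the correlation ranged from 0.42 to 0.97 with a median of 0.69, and from 0.26 to 0.98 with a median of 0.63 without those libraries. The highest of these was between TRIREDRAFT_73623 and the transporter gene. In replicate 2 of Δ*nsd3* at 48 h these genes had 3.40 and 38.1 TPM, against at most 0.135 and 1.001 TPM in replicates 1 and 3. The part of that library in the correlations was not tested. On this measure the polyketide synthase genes correlated at 0.97 over all libraries. Against the mean of the other 6 members, TRIREDRAFT_73631 was lowest (0.76, and 0.24 without WT at 48 h) and TRIREDRAFT_73621 was highest (0.97 and 0.86). These correlations are a description, and the libraries that stood apart at 48 h are among the points.

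The genes beside the cluster were taken from the same gene order, 5 on each side. Of these 10 genes, 5 passed the filter. TRIREDRAFT_102500, which follows *ypr1*, was called lower without *nsd3* in each of the 4 conditions. It had 8.34, 7.58, and 7.71 TPM on glucose in the Δ*nsd3* strain, against 44.6, 44.5, and 40.9 TPM in WT, and 1.86, 2.14, and 1.83 TPM at 48 h, against 15.6, 8.16, and 18.0 TPM in WT. The libraries were apart in every condition, with log2 fold changes of -2.32 on glucose, -1.80 on glycerol, -1.50 at 8 h, and -2.28 at 48 h. Of the 4 adjusted p-values, the lowest was 3.9e-07 (at 48 h) and the highest was 4.5e-05 (at 8 h), and the calls on glycerol (-0.86) and at 8 h (-0.79) were lost with a pseudocount of 5 TPM. Its change between 8 h and 48 h was 0.95 in WT, under the fold threshold, where the log2 fold changes of the 7 members were 2.60 or more. Like TRIREDRAFT_73631, it fell on glycerol against glucose in both strains, with log2 fold changes of -2.24 in the Δ*nsd3* strain (adjusted p = 1.2e-07) and -2.75 in WT (adjusted p = 4.5e-09).

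Further along lie the genes of carbohydrate-active proteins *axe1* (TRIREDRAFT_73632), an acetyl xylan esterase, *cip1* (TRIREDRAFT_73638), and *cel61a* (TRIREDRAFT_73643), a polysaccharide monooxygenase. At 48 h, *axe1* had 110, 156, and 104 TPM in the Δ*nsd3* strain, against 350.3, 488, and 503 TPM in WT (log2 fold change of -1.85, adjusted p = 1.9e-05). *cip1* had 404, 369, and 306 TPM in the Δ*nsd3* strain, against 849.9, 1079, and 873 TPM in WT (-1.37, adjusted p = 0.0083, and 0.091 with a pseudocount of 0.1 TPM). Neither was called between strains in the other conditions, and *cel61a* was called in none. Over time, *axe1* and *cip1* had another course than the members. From glycerol to 8 h on cellulose *axe1* rose by 10.67 on the log2 scale in the Δ*nsd3* strain and by 9.87 in WT, and between 8 h and 48 h it fell by 4.69 in the Δ*nsd3* strain and by 2.09 in WT (adjusted p = 2.8e-06 in WT). *cip1* likewise fell between 8 h and 48 h by 3.10 in the Δ*nsd3* strain and by 1.99 in WT (adjusted p = 0.00035 in WT). On the other side of the cluster, TRIREDRAFT_53776 was called lower in the Δ*nsd3* strain on glucose (-1.04, adjusted p = 0.0013). That call was lost after rescaling by the median of ratios, where the value was -0.97, with a pseudocount of 5 TPM (-0.41), and without replicate 3 of Δ*nsd3* (-0.97) or replicate 1 of WT (-0.87). It was not called in the other conditions.

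**Figure D3:**
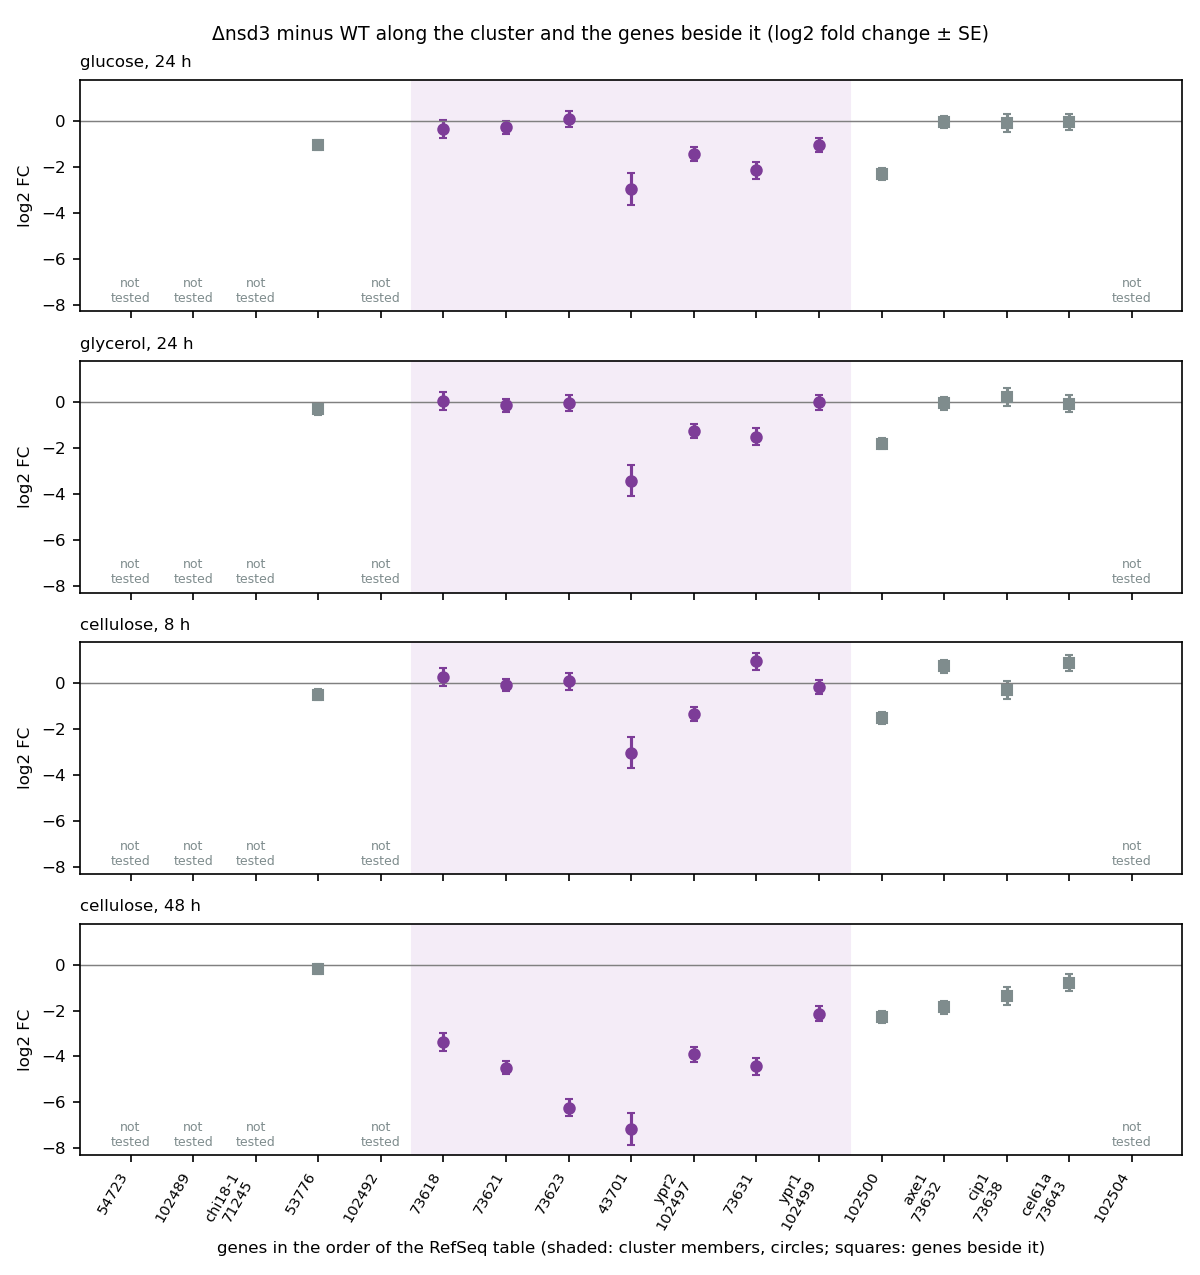
Log2 fold change of the Δ*nsd3* strain minus WT, with SE bars, for the cluster members (circles, shaded) and the genes on either side (squares), in RefSeq gene order, with 1 panel per condition; genes below the filter are marked as not tested. The members range from -7.15 to -2.13 at 48 h on cellulose, and TRIREDRAFT_102500 lies between -2.32 and -1.50 in the 4 conditions.

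The 5 other genes with the profile most like the mean profile of the members, out of 7926 compared over all 24 libraries, were TRIREDRAFT_107962 (Pearson's r = 0.97), TRIREDRAFT_123084 (0.97), TRIREDRAFT_107867 (0.95), TRIREDRAFT_4426 (0.92), and TRIREDRAFT_109944 (0.92). TRIREDRAFT_123084 had a mean of 7.72 TPM in the Δ*nsd3* strain and 844 TPM in WT at 48 h, close to the level of the transporter gene in WT. TRIREDRAFT_107962 had means of 1.27 TPM in the Δ*nsd3* strain and 79.0 TPM in WT at that time. In all 5, the lowest WT library at 48 h was above the highest Δ*nsd3* library. The choice of these genes rests on that same pattern, and the members themselves correlated with the mean profile, which includes them, at 0.82 to 0.98. Over the 12 WT libraries alone, 1 of the 5 genes, TRIREDRAFT_123084, was again among the first 5.

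**Figure D4:**
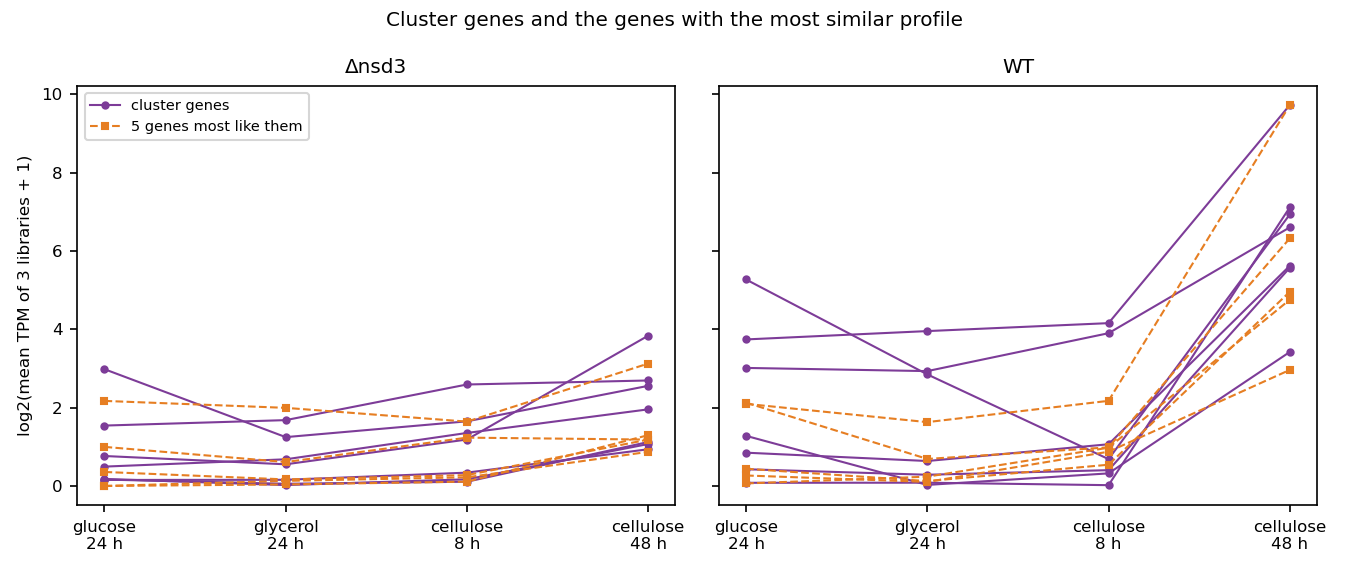
Mean level of the 7 members (purple, solid) and of the 5 genes with the most similar profile (orange, dashed), as log2(mean TPM of 3 libraries + 1), over the 4 conditions in the Δ*nsd3* strain (left) and WT (right). In WT the transporter gene and TRIREDRAFT_123084 end at nearly the same level at 48 h, 845 and 844 TPM.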

How the data were processed

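Polyadenylated RNA was sequenced from stranded libraries. Per the labels and the study's methods, the authors used Trim Galore 0.6.7 for trimming, HISAT2 2.2.1 for mapping to the JGI Trire2 release of the *T. reesei* genome, featureCounts for reads per gene, and DESeq2 for their own comparisons. The deposited table holds the authors' TPM, to 3 decimals, for 8755 genes in 24 libraries, and all columns were used. The sums were 838257 to 886039 TPM per library. Without counts, the precision that depth gives could not be computed and DESeq2 could not be used. Samples were grouped by their titles. After a filter (1 TPM or more in 3 or more libraries), log2(TPM + 1) of 7933 genes was fitted with limma 3.58.1 (R 4.3.3), with a mean per group and eBayes with an intensity trend. Two-sided p-values were adjusted over these genes (Benjamini-Hochberg). With 3 libraries against 3, an exact permutation test cannot go below 0.1 and was not used. The fit was tested on simulated data. No libraries held identical values.

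Same-numbered replicates counted as paired only if each of the 3 pairs had deviations from the group means that correlated above 0.1. This held between strains on glycerol (0.11, 0.20, and 0.20) and at 48 h (0.21, 0.17, and 0.29). Alternatives were a pseudocount of 0.1 or 5 TPM, no filter, a filter at 5 TPM, rescaling by the median of ratios, a fit of only the groups compared, the replicate block, and each library left out in turn.

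The members and lists were chosen with earlier results of these data known. The genes named are the 7 members, *nsd3*, the genes among the 5 on each side of the cluster that were called between strains, and the 5 genes with the most similar profile. *cel61a* was named although it was not called. Gene order and symbols come from the RefSeq gene table (assembly v2.0), where 8750 identifiers were found; its coordinates are not printed because the deposited table holds none to compare them with. Lists of other polyketide synthases and of precursor supply were planned, but no product names were at hand to fill them, and they were not analysed here. Tables and figures were made in Python 3.11.15 (pandas 2.3.3, numpy 2.4.6, matplotlib 3.10.9).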

Additional observations from a re-analysis of the deposited data

Results flagged for a closer look

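For 2 members, the libraries of 2 conditions did not overlap in either strain, and the direction was opposite between the strains. The share of all genes with such a pattern was not computed, so nothing is read from the count. The difference between strains was not tested in either case, since the members were chosen with strain results known. From glycerol to 8 h on cellulose, TRIREDRAFT_73631 was higher in the Δ*nsd3* strain and lower in WT, and the log2 fold change of the Δ*nsd3* strain exceeded that of WT by 2.47. From glucose to glycerol, TRIREDRAFT_73618 was higher in the Δ*nsd3* strain and lower in WT, at levels under 1 TPM, with a difference of 0.39. Neither change was called (limma, 0.19 with adjusted p = 0.72 in the Δ*nsd3* strain, and -0.21 with adjusted p = 0.69 in WT).

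The strain effect on TRIREDRAFT_73631 also had opposite directions between conditions. The effect at 8 h on cellulose exceeded that on glucose by 3.12, that on glycerol by 2.47, and that at 48 h by 5.38 on the log2 scale. These differences were not tested.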

How the results depend on the processing

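The 5 members tested between 8 h and 48 h in WT were called higher at 48 h under every alternative run but the filter at 5 TPM, which *ypr1* did not pass. Counts of members between strains, from which nothing is read, were 7 lower at 48 h (6 with the filter at 5 TPM) and 4 on glucose (3 with that filter, and 3 to 4 with each library left out, as *ypr1* was not called without replicate 3 of Δ*nsd3* or replicate 1 of WT). Counts of called members were the same with the replicate block. With a pseudocount of 5 TPM, the members called lower in the Δ*nsd3* strain were 2 on glucose, 1 on glycerol, and 1 at 8 h. Of all genes, 238 were then called lower on glucose and 163 on glycerol, against 512 and 246 before. Members lower on glycerol against glucose were then 0 in the Δ*nsd3* strain and 1 in WT, with 0 lower at 8 h against glycerol in WT. Counts of called members under these settings may include TRIREDRAFT_73621 and TRIREDRAFT_73623, and nothing is read from them. With 0.1 TPM, the members called higher were 1 for the strains at 8 h, 1 at 8 h against glycerol and 2 at 48 h against 8 h in the Δ*nsd3* strain, and 2 at 8 h against glycerol in WT. A filter at 5 TPM left 1 member lower on glycerol against glucose in WT. With each library left out in turn, the counts of members called higher ranged from 0 to 1 in those 4 comparisons, and members called lower on glycerol against glucose in WT ranged from 1 to 2. In the Δ*nsd3* strain between 8 h and 48 h, that exercise turned the direction of TRIREDRAFT_73623 (-0.015 to 1.05), the transporter gene (-0.22 to 2.003), and *ypr2* (-0.33 to 0.36), and rescaling by the median of ratios turned that of the transporter gene at 8 h against glycerol in WT (-0.30). Of the 5 genes with the most similar profile, 1 was again among the first 5 over the WT libraries alone, and the median correlation of deviations was 0.63 without the 3 WT libraries at 48 h, an alternative chosen after seeing the data. Rescaling by the median of ratios moved the calls over all genes, on glycerol between strains to 301 higher and 442 lower (586 and 246 before) and at 8 h against glycerol in WT to 676 higher and 804 lower (1661 and 399 before). Without counts, small differences among values near 0 cannot be told from counting error.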
